A study of Mus musculus with 10 samples.

Results

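The genes of the chemokine system were followed in testes of mice with a conditional knockout of *Rnf20* and in their controls. They were chosen by gene symbol alone, as the numbered members of the Ccl, Cxcl, Ccr, Cxcr and Ackr families, leaving out 1 ligand and its receptor that are not analysed here, and no measured value is part of that rule. This gave 55 of the 20142 genes in either table, of which all 55 were in the adult testis table and 43 were also in the day 7 table. By role there were 24 CC ligands, 11 CXC ligands, 11 CC receptors, 5 CXC receptors and 4 atypical receptors.

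Chemokines are small secreted proteins that direct the migration of leukocytes. They are named by the spacing of the first cysteines, which are adjacent in the CC ligands and separated by a residue in the CXC ligands, and they act through receptors on the surface of the migrating cell that signal through inhibitory G proteins. Atypical receptors bind chemokines without that signal and take them up, which shapes the local gradient. In the testis most leukocytes are macrophages, which lie between the seminiferous tubules beside the testosterone-producing Leydig cells, while the germ cells inside the tubules are shielded by the junctions of the Sertoli cells, the somatic cells that nurse them.

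RNF20 is an E3 ligase that attaches ubiquitin to histone H2B. Mice carried *Rnf20 Flox/Flox* alleles, with LoxP sites on both sides of a group of early exons, and Cre recombinase driven by the Amh promoter, which is active in Sertoli cells, removed that part to give *Amh-Rnf20-/-* animals. Adult testis was represented by 3 samples labelled WT and 3 labelled RNF20 conditional knockout. The exact adult age and the crosses behind these 6 samples are not given in the sources used here. Sertoli cells of testes taken 7 days after birth were represented by 2 WT samples, which are *Rnf20 Flox/Flox* in the study's account, and 2 *Amh-Rnf20-/-* samples. These cells were isolated by enzymes, grown in serum and passaged several times before use, so in the study's account they are a culture and not cells taken straight from the tubule. The growth label of these samples reads as adult tissue, against the other labels and the methods. The study's methods speak of 3 individuals in each day 7 group, of which 2 samples a group are analysed here. All samples were untreated according to the labels. For adult testis the sources used here do not say whether the replicates were separate animals, so its p-values measure the spread between these samples, which may be technical.

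Depth was 15431912 to 16574144 estimated counts per adult sample and 17477268 to 17705347 per day 7 sample. The level of *Rnf20* was not lower in the adult samples labelled knockout. FPKM (fragments counted relative to transcript length and to all fragments of the sample) was 4.89, 3.32 and 4.09 in the WT samples and 9.16, 5.76 and 9.85 in those labelled knockout. The log2 fold change was 0.12 (SE 0.27, adjusted p = 0.688, edgeR's quasi-likelihood test). The adult directions below are therefore between samples as labelled. *Hprt*, a gene used in most cells, was at 10.93 FPKM or less in WT samples and at 75.7 or more in the others (log2 fold change 2.30, adjusted p = 4.86e-05). At day 7 *Rnf20* was at 16.64 and 16.01 in WT and 10.25 and 12.58 in knockout (log2 fold change −0.49, SE 0.12, adjusted p = 0.222). Counts were per gene, so loss of the floxed exons alone would not show in them. In adult testis the 8 spermatid markers summed to between 122587 and 191191 FPKM in WT samples and to between 3.58 and 82.75 in the samples labelled knockout. The first adult sample labelled knockout stood apart from the other two. Its counts differed from theirs by a chi-square of 88.1 and 118 for each degree of freedom, and the distance between those 2 was 21.4. Among the 10 Sertoli cell markers it had 1.2 FPKM of *Sox9* against 9.86 and 12.65 in the other 2, while *Gata4* was at 53.51 against 57.7 and 54.85. The 7 spermatocyte markers summed to 2.07 FPKM in that sample against 95.3 and 156.89.

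The first question was how chemokine genes differ between adult testes labelled WT and knockout. Of the 55 genes, 38 passed the filter on low values (0.5 FPKM or more in 3 or more samples). Of these, 26 were higher and 7 were lower in the samples labelled knockout at an adjusted p under 0.05, which 40.9% of all 15919 genes tested did upward and 40.6% downward. At the thresholds of the study's methods (a change of more than 1 on the log2 scale either way, at a false discovery rate under 0.001), 16 were higher and 7 were lower, where 23.0% of all genes tested passed upward and 23.7% downward. The former counts were 26 and 9 without the first sample labelled knockout, where 45.3% of all genes tested were higher and 41.1% were lower. The latter, 23 in both directions, became 29 without it, where 64.7% of all genes passed, and 7 to 11 without any other sample, where 16.9% to 29.4% passed. With the replicate number as a block it was 0, as it was for 0% of all genes, since the smallest adjusted p of that fit was 0.00149. The median log2 fold change of the 38 genes was 3.30, or 2.98 with *Ccl3*, which had no count in any WT sample, placed at the lower bound of its change, beside a median of 0.01 over all genes tested. These counts and the median were shaped by the filter: 22 of the 38 reached it in every sample labelled knockout but not in every WT sample (20 higher, 2 not called), 4 in every WT sample alone (3 lower, 1 not called), and the 11 that reached it in all 6 samples held 6 higher, 4 lower and 1 not called. Without a filter, 28 of all 55 members were higher and 8 were lower, where 34.7% and 35.8% of all 19983 genes were. By role, 11 of 19 CC ligands tested rose and 4 fell, 6 of 6 CXC ligands tested rose (of 11 in the table), 4 of 7 CC receptors rose and 2 fell, 2 of 3 CXC receptors rose and 1 fell, and 3 of 3 atypical receptors tested rose (of 4 in the table). Of the CXC ligands and atypical receptors only *Cxcl16* and *Ackr3* reached the filter in every WT sample. Fold changes below are on TMM-scaled counts. FPKM are relative to all fragments of a sample. Scaling by the total count alone put the median of all genes at 0.87 on the log2 scale, beside 0.01 with TMM scaling. FPKM ratios therefore tend to run above the fitted folds. An exception was *Ccl27b*, with mean FPKM of 63.79 in WT samples and 11.14 in the others, a larger fall than its fitted 3.84-fold. All 33 called genes kept their sign under total-count and median-ratio scaling. In whole testis RNA, fewer cells of a type cannot be told apart from less RNA per cell.

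The most abundant ligand gene changed identity between the groups. In the 3 WT samples *Ccl27a* held 78.9%, 83.0% and 81.8% of the FPKM summed over the 35 ligands. In the 3 samples labelled knockout *Ccl8* held 52.2%, 56.8% and 52.2%. Without *Ccl27a* and its near copy *Ccl27b*, the ligands summed to 80.54, 84.21 and 65.44 FPKM in WT samples and to 1324.83, 1098.75 and 734.79 in the samples labelled knockout.

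*Ccl8* (chromosome 11 of GRCm38.p6, 82115185 to 82116799) encodes a ligand of the monocyte chemoattractant group that acts on CCR8 in mice. Its FPKM was 25.79, 37.72 and 16.31 in WT samples and 706.07, 642.04 and 394.51 in the samples labelled knockout. The groups were far apart, and the fitted rise was 12.0-fold (log2 fold change 3.58, SE 0.42, adjusted p = 0.000363, edgeR's quasi-likelihood test). Its receptor gene *Ccr8* was at or near 0 in every adult sample, between 0 and 0.14 FPKM. *Ccl1*, the other CCR8 ligand, had 3.15, 0.98 and 3.14 FPKM in WT samples and 0.25, 2.25 and 2.05 in the samples labelled knockout, with overlapping groups (adjusted p = 0.0962).

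The ligands of CCR2, which calls monocytes out of the blood, rose together with the receptor. *Ccl2* was at 0.22, 0.33 and 0.22 FPKM in WT samples and at 9.76, 12.62 and 19.33 in the samples labelled knockout, a fitted 28.3-fold rise (log2 4.82, SE 0.42). *Ccl7* was at 0.66, 0.22 and 0.56 FPKM against 10.08, 22.52 and 21.05 (log2 4.31, SE 0.50). *Ccl12* was at 1.08, 0.66 and 2.37 against 42.34, 57.32 and 56.51 (log2 4.36, SE 0.44), the highest level of the 3 ligands. The receptor *Ccr2* was at 0.22, 0.07 and 0.09 FPKM in WT samples and at 2.85, 6.59 and 3.79 in the samples labelled knockout (log2 4.24, SE 0.53). All 4 genes had adjusted p-values between 0.000119 and 0.000485 in edgeR's quasi-likelihood test, and none of them overlapped between groups. Without the third WT sample the log2 fold change of *Ccl12* was 5.0, and without the first that of *Ccr2* was 4.84. *Ccl2*, *Ccl7*, *Ccl12* and *Ccl8* are neighbours on chromosome 11, in a run of 6 members from 82035577 to 82179812 that also holds *Ccl11* and *Ccl1*.

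CCR1 is a receptor of monocytes, macrophages and activated T cells. *Ccr1* was at 0.26, 0 and 0.07 FPKM in WT samples and at 3.01, 5.44 and 3.49 in the samples labelled knockout, with no overlap between groups (log2 fold change 4.30, SE 0.85, adjusted p = 0.00354, edgeR's quasi-likelihood test). Without the first WT sample the log2 fold change was 5.85.

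Another run of 5 ligand genes on chromosome 11, from 83525778 to 83664683, holds *Ccl5*, *Ccl9*, *Ccl6*, *Ccl3* and *Ccl4*, of which 4 rose. *Ccl6*, a mouse ligand of CCR1, was at 0.51, 0.41 and 0.42 FPKM in WT samples and at 44.09, 7.39 and 5.2 in the samples labelled knockout, so that the first of these was 8.48-fold above the lowest. Its log2 fold change of 4.58 (SE 1.06, adjusted p = 0.00695) was 3.05 with the first of these samples left out. *Ccl9*, its neighbour, was also highest in the first of these samples, at 0.09, 0.09 and 0.11 FPKM against 6.51, 1.93 and 2.82 (log2 4.43, SE 0.64, and 3.83 without that sample). *Ccl5*, which T cells make in quantity, was at 6.12, 6.22 and 4.38 FPKM against 24.81, 50.49 and 23.90, a 3.24-fold rise (log2 1.70, SE 0.39, adjusted p = 0.00694). *Ccl3* had no count in any WT sample and 3.31, 1.39 and 1.09 FPKM in the samples labelled knockout, at least 3.11-fold higher with the WT group at a floor of 3 counts per library. *Ccl4*, the neighbour of *Ccl3* on chromosome 11, was at 0.30, 0.76 and 1.05 FPKM against 1.57, 2.30 and 0.96, with groups that overlapped (log2 0.33, SE 0.57, adjusted p = 0.608).

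CCR7 guides dendritic cells and naive lymphocytes to lymph nodes. Both of its ligands rose while the receptor was not called. *Ccl21a* (chromosome 4, 42772860 to 42773991) was at 18.49, 15.28 and 11.01 FPKM in WT samples and at 336.59, 154.84 and 82.59 in the samples labelled knockout (log2 fold change 2.85, SE 0.58, adjusted p = 0.00416). The first of the latter was 4.08-fold above the third, and the log2 fold change was 2.25 without it. *Ccl19* had 1.78 estimated counts over the WT group and 62.34 over the other. Rounded to 2 and 62, these gave a ratio of 17.7 (95% exact counting interval 4.7 to 150) on scaled counts. FPKM was 0.19, 0.04 and 0 against 3.69, 2.26 and 2.54. The fitted log2 fold change was 4.82 (SE 0.79, adjusted p = 0.00153, edgeR's quasi-likelihood test), and 7.11 without the first WT sample. *Ccr7* was at 0.36, 0.70 and 0.66 FPKM against 0.53, 1.19 and 0.50 (adjusted p = 0.408). *Ccl21a* has near-identical copies, 99.5% identical to *Ccl21b* over 402 aligned transcript bases. The copies *Ccl21b*, *Ccl21c* and *Ccl21d* were listed at no more than 0.90 FPKM, with *Ccl21c* and *Ccl21d* identical to each other in every sample, so the split of reads among them is uncertain.

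*Ccl24*, a ligand of the eosinophil receptor CCR3, was at 0.47, 0.34 and 0.45 FPKM in WT samples and at 33.87, 27.41 and 19.39 in the samples labelled knockout, a 33.9-fold rise (log2 5.08, SE 0.40, adjusted p = 8.5e-05). *Ccr3* itself stayed at or under 0.19 FPKM in every adult sample and was not tested. *Ccl11*, another ligand of CCR3, had no count in WT samples and 0.46, 0.76 and 0.32 FPKM in the others, at least 1.27-fold higher by the same floor, and was not tested.

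Of the 7 members that fell, 4 were ligands and 3 were receptors. *Ccl27a* (chromosome 4, 41769467 to 41774225), known as a ligand of CCR10 made by the skin, was at 834.47, 544.64 and 394.52 FPKM in WT samples and at 12.33, 20.45 and 15.18 in the samples labelled knockout. That was a 49.7-fold fall on counts (log2 fold change −5.64, SE 0.27, adjusted p = 2.9e-05). The length implied by the counts and FPKM of *Ccl27a* was 182 to 234 bases in WT samples and 260 to 296 in the others. A shorter length raises FPKM for the same count, so its share of the ligand FPKM in WT samples depends in part on that length. *Ccl27b* was at 141.96, 27.28 and 22.14 FPKM against 15.56, 11.75 and 6.11, while its estimated counts were 725, 523 and 575 against 364, 240 and 216 (log2 −1.94, SE 0.26, adjusted p = 0.000685). The length implied by its counts and FPKM ran from 308 bases in the first WT sample to 1600 in the third, while the counts were alike. *Ccl27a* and *Ccl27b* share 98.8% of 324 aligned transcript bases, so reads may have been split between them. *Ccr10*, the receptor of both, moved the other way, with 3 counts over the WT group and 40 over the other, a ratio of 7.62 (95% exact counting interval 2.43 to 38.5). It stayed low, at 0.04 FPKM in each WT sample and at 0.56, 0.55 and 0.62 in the others. *Ccl28*, the other CCR10 ligand, was at 0.24, 1.47 and 0.55 FPKM against 0.95, 0.18 and 0.17 (adjusted p = 0.144).

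The CCR4 pair fell on both sides. CCR4 is a receptor of regulatory and type 2 helper T cells, with CCL22 and CCL17 as its ligands. *Ccr4* had 2.52, 2.74 and 2.51 FPKM in WT samples and 0.05 in each of the samples labelled knockout, a 72.6-fold fall (log2 −6.18, SE 0.36, adjusted p = 4.01e-05) that rested on 4 counts in all in the latter group. *Ccl22* was at 6.75, 5.62 and 6.24 FPKM against 1.01, 1.39 and 0.96, a 9.96-fold fall (log2 −3.32, SE 0.24). *Ccl17* was at 5.36, 4.74 and 9.53 FPKM against 11.05, 5.31 and 8.68, with a log2 fold change of −1.01 on scaled counts (SE 0.43, adjusted p = 0.0660) that did not pass. On FPKM the direction of *Ccl17* was the other one, and the length implied by its counts and FPKM was 375 to 399 bases in WT samples and 256 to 279 in the others.

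The other members that fell were *Ccl25*, *Ccr6* and *Cxcr5*. *Ccl25*, which draws T cell precursors to the thymus, was at 5.11, 4.92 and 5.44 FPKM in WT samples and at 2.58, 3.16 and 3.18 in the others (3.01-fold lower, log2 −1.59, SE 0.21, adjusted p = 0.000627), with its receptor gene *Ccr9* at no more than 0.05 FPKM. *Ccr6*, the receptor of CCL20, was at 3.40, 4.13 and 4.83 FPKM against 0.07, 0.24 and 0.13 (24.7-fold lower, log2 −4.63, SE 0.40). *Ccl20* had no count in WT samples and 0.12, 0.80 and 1.66 FPKM in the others, at least 1.40-fold higher by the floor. *Cxcr5*, the receptor that places B cells in follicles, was at 1.70, 1.08 and 1.24 FPKM against 0.13, 0.10 and 0.08 (21.9-fold lower, log2 −4.45, SE 0.36). Beside these falls, all 8 spermatid markers and 4 of 7 spermatocyte markers fell, and 3 of 7 spermatogonium markers fell and 2 rose. The part of germ cells in the 7 falls was not tested.

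**Figure D1:**
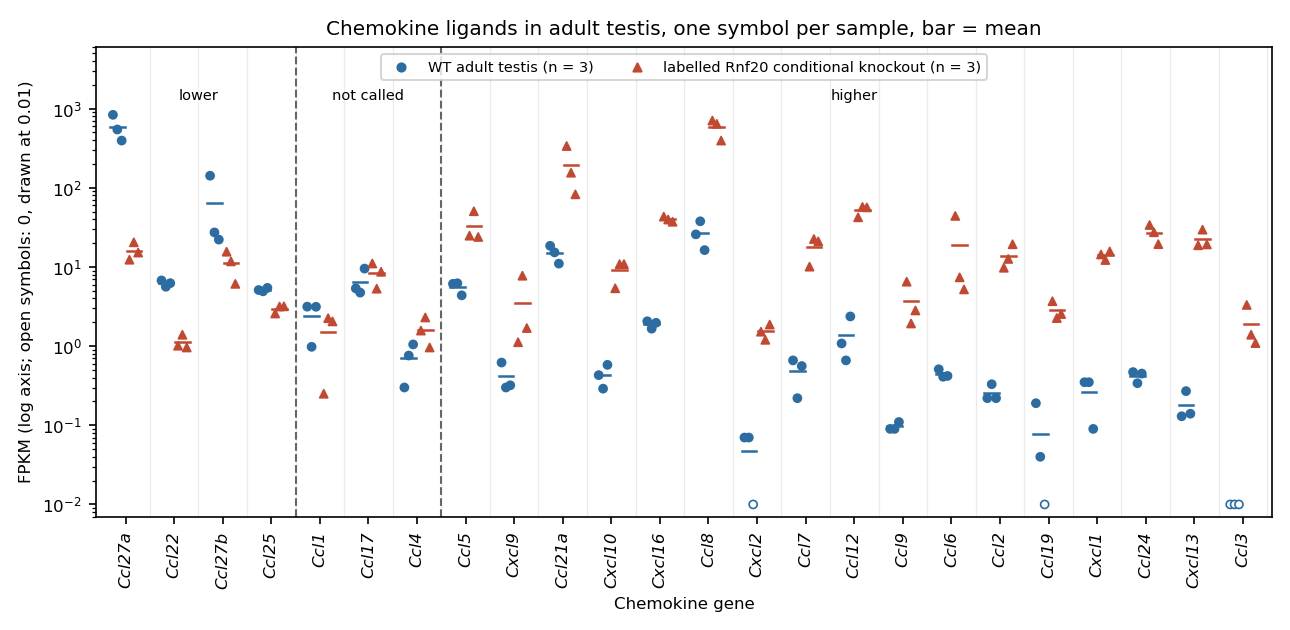
FPKM of the 24 chemokine ligands with a mean of at least 1 in an adult group, on a log axis, one symbol per sample (circles WT, n = 3; triangles labelled RNF20 conditional knockout, n = 3) with a bar at each group mean; open symbols are values of 0. Ligands are ordered by fitted log2 fold change within the lower, uncalled and higher calls, and Ccl27a at the left and Ccl8 near the middle hold the highest values of the WT and the other group, 834 and 706 FPKM.

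Among the CXC ligands, *Cxcl13*, which attracts B cells through CXCR5, had the largest fitted rise of the members with counts in every sample (chromosome 5, 95956939 to 95961068). It was at 0.13, 0.27 and 0.14 FPKM in WT samples and at 18.78, 29.57 and 19.25 in the samples labelled knockout, 66.9-fold (log2 fold change 6.06, SE 0.40, adjusted p = 5.23e-05), and so moved against its receptor gene *Cxcr5*. *Cxcl16*, a membrane-bound ligand of CXCR6, was the most abundant CXC ligand in all 6 samples, at 2.06, 1.66 and 1.97 FPKM against 43.16, 39.67 and 37.21. It rose 11.6-fold with little spread (log2 3.54, SE 0.17, adjusted p = 2.79e-05, the smallest of all members). Its receptor gene *Cxcr6*, found on T cells and NK cells, was at 0.15, 0.15 and 0.04 FPKM against 3, 5.44 and 3.52 (log2 4.25, SE 0.52). Of the exonic bases of *Cxcl16*, 18.3% overlap *Zmynd15* on the opposite strand, and the handling of strand is not given in the sources used here.

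CXCR3 is carried by activated T and NK cells, and its ligands are induced by interferon. *Cxcr3* (chromosome X) had 3 counts over the WT group and 190 over the other, a ratio of 36.2 (95% exact counting interval 12.2 to 177). FPKM was 0, 0.09 and 0.05 against 3.58, 3.29 and 1.96. The fitted log2 fold change of 5.06 ran from 4.50 to 5.99 with each sample left out. *Cxcl10* was at 0.43, 0.29 and 0.58 FPKM against 5.37, 10.84 and 10.85 (11.3-fold, log2 3.49, SE 0.42, adjusted p = 0.000401). *Cxcl9* was at 0.62, 0.30 and 0.32 FPKM against 1.12, 7.74 and 1.69, with the second sample 6.91-fold above the first. Its log2 fold change of 2.23 (SE 0.83, adjusted p = 0.0445) was the weakest call of the 33, and it fell to 0.90 (adjusted p = 0.111) without that sample. The call also ended with median-ratio scaling, with the replicate number as a block and without each WT sample in turn.

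*Cxcl1* and *Cxcl2*, ligands of the neutrophil receptor CXCR2, rose from near 0. *Cxcl1* was at 0.35, 0.35 and 0.09 FPKM in WT samples and at 14.35, 12.22 and 15.69 in the samples labelled knockout (28.8-fold, log2 4.85, SE 0.44, adjusted p = 0.000144). *Cxcl2* had 2 counts over the WT group and 60 over the other, a ratio of 17.1 (95% exact counting interval 4.54 to 145), with FPKM of 0.07, 0.07 and 0 against 1.52, 1.2 and 1.87. *Cxcl3* and *Cxcl5*, neighbours with the same receptor, did not reach the filter, at 0.08, 0.08 and 0 against 0.25, 0.16 and 0.34 FPKM for *Cxcl3* and at no more than 0.40 FPKM for *Cxcl5*. The receptor genes *Cxcr1* and *Cxcr2* stayed at or under 0.12 FPKM in all 6 samples.

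The promoters of *Cxcl1*, *Cxcl2*, *Cxcl3* and *Cxcl10* are shown because they hold a kappa B type motif, the kind of site bound by NF-kappaB, and because the first 3 of these genes moved together in the day 7 culture. The windows run from 250 bases before to 50 after the start, from RefSeq on GRCm38.p6, and are written 5′ to 3′ on the gene's strand. Capitals mark GGAANTTCC (kappa B type) and, in *Cxcl10*, also GAAANNGAA (interferon response element type), searched on both strands. The windows are chr5:90890995-90891294 on the plus strand for *Cxcl1*, chr5:90903649-90903948 on the plus strand for *Cxcl2*, chr5:90785851-90786150 on the plus strand for *Cxcl3* and chr5:92348840-92349139 on the minus strand for *Cxcl10*.
Cxcl1: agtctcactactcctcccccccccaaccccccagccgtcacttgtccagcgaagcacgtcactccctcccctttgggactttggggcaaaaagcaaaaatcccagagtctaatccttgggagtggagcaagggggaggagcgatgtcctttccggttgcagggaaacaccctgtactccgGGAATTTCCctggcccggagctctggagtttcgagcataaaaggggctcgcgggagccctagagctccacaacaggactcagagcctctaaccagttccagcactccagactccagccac
Cxcl2: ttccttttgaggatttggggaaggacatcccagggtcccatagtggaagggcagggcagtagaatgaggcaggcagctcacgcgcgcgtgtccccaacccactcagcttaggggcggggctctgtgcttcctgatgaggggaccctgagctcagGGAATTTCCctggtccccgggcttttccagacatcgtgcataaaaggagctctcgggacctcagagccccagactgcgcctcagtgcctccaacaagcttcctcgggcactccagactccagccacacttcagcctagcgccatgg
Cxcl3: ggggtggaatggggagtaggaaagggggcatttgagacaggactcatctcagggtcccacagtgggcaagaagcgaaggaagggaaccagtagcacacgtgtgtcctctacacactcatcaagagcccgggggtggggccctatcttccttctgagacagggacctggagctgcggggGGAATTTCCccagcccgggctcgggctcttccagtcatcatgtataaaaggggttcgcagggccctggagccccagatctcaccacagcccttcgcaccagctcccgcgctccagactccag
Cxcl10: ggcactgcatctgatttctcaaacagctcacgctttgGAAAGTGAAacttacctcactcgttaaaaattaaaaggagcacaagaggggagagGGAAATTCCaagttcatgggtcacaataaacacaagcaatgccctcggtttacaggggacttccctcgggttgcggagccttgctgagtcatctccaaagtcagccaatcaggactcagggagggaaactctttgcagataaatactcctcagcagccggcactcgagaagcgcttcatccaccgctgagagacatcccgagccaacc

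The kappa B type motif began 70, 96, 72 and 158 bases before the start of *Cxcl1*, *Cxcl2*, *Cxcl3* and *Cxcl10*, and the interferon type motif began 213 bases before that of *Cxcl10*. Promoter sequences were matched for 41 of the 55 genes, with 48 windows in all. The kappa B type motif was in 7 of the 48 windows (14.6%), those of *Ccl1*, *Ccl12*, *Ccr3*, *Cxcl1*, *Cxcl2*, *Cxcl3* and *Cxcl10*, and in 0.928% of all 32851 promoter windows. The interferon type motif was in 16.7% of the members' windows and in 8.56% of all. The STAT type motif TTCNNNGAA was in 8.33% and 8.30%, and TATAAA was in 25.0% and 13.6%. No match to 1 of these motifs overlapped a match to another in the members' windows. Several of these windows belong to genes that arose by duplication, so they are not independent, and a match describes letters in the window and not binding.

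**Figure D2:**
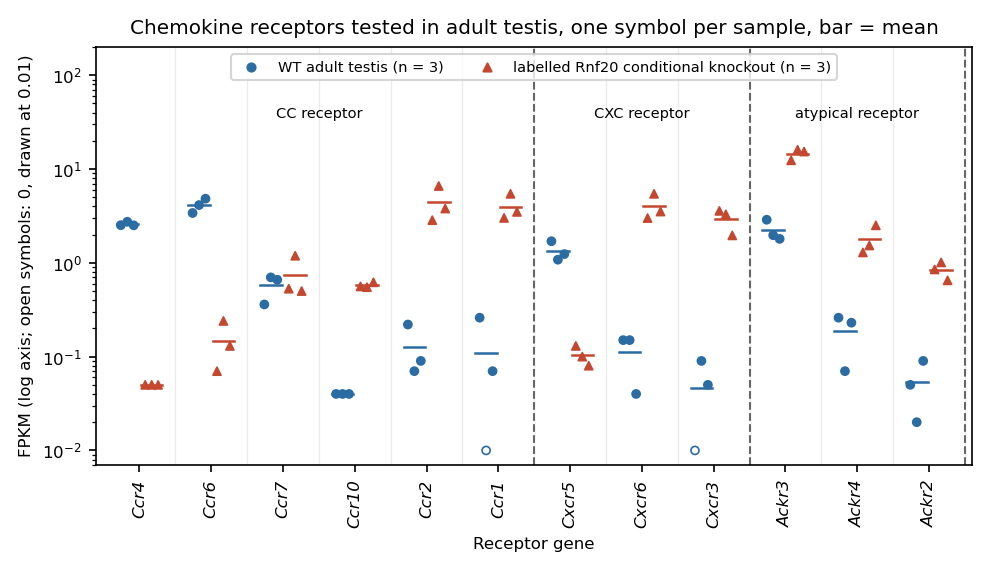
FPKM of 12 chemokine receptors that passed the filter in adult testis, on a log axis, one symbol per sample (circles WT, n = 3; triangles labelled RNF20 conditional knockout, n = 3) with a bar at each group mean; open symbols are values of 0. Ccr4, Ccr6 and Cxcr5 are lower in the samples labelled knockout, Ccr7 overlaps, and the other 8 are higher.

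The tested atypical receptors rose as well. *Ackr3* was the most abundant receptor among the members in the samples labelled knockout, at 12.38, 16.04 and 15.36 FPKM against 2.88, 1.97 and 1.80 in WT samples (3.62-fold, log2 fold change 1.85, SE 0.22, adjusted p = 0.000377). *Ackr4*, which takes up the ligands of CCR7 and CCR9, was at 0.26, 0.07 and 0.23 FPKM against 1.29, 1.53 and 2.51 (5.36-fold, log2 2.42, SE 0.50). *Ackr2*, which takes up inflammatory CC ligands, was at 0.05, 0.02 and 0.09 FPKM against 0.85, 1.01 and 0.65 (8.56-fold, log2 3.10, SE 0.50, and 3.70 without the third WT sample). *Ackr1*, known from red blood cells and small veins, was at 0 in each WT sample and at 0.31, 0.25 and 0.18 FPKM in the others, too low for the filter. Summed over the class, atypical receptors held 3.19, 2.06 and 2.12 FPKM in WT samples and 14.83, 18.83 and 18.70 in the others.

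Set out by receptor, ligand and receptor genes moved in the same direction for CCR1, CCR2, CXCR3 and CXCR6, where each tested ligand and the receptor rose, and for CCR4, where the receptor and *Ccl22* fell. The rise of *Cxcl9* among these was the call that several alternatives ended. Ligand and receptor genes moved in opposite directions for CXCR5 and CCR10. For CCR3, CCR8 and CXCR2 the receptor gene was too low to test, while *Ccl24*, *Ccl8*, and *Cxcl1* and *Cxcl2* rose. Of their other ligands *Ccl1* was not called and *Ccl11*, *Cxcl3* and *Cxcl5* were not tested. The CCR9 gene was too low to test as well, while its ligand *Ccl25* fell. The 17 members that were not tested in adult testis had at most 1.66 FPKM in any sample, and they included *Ccr1l1*, *Cxcl14*, *Cxcl15* and *Cxcl17* besides those named above.

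**Figure D3:**
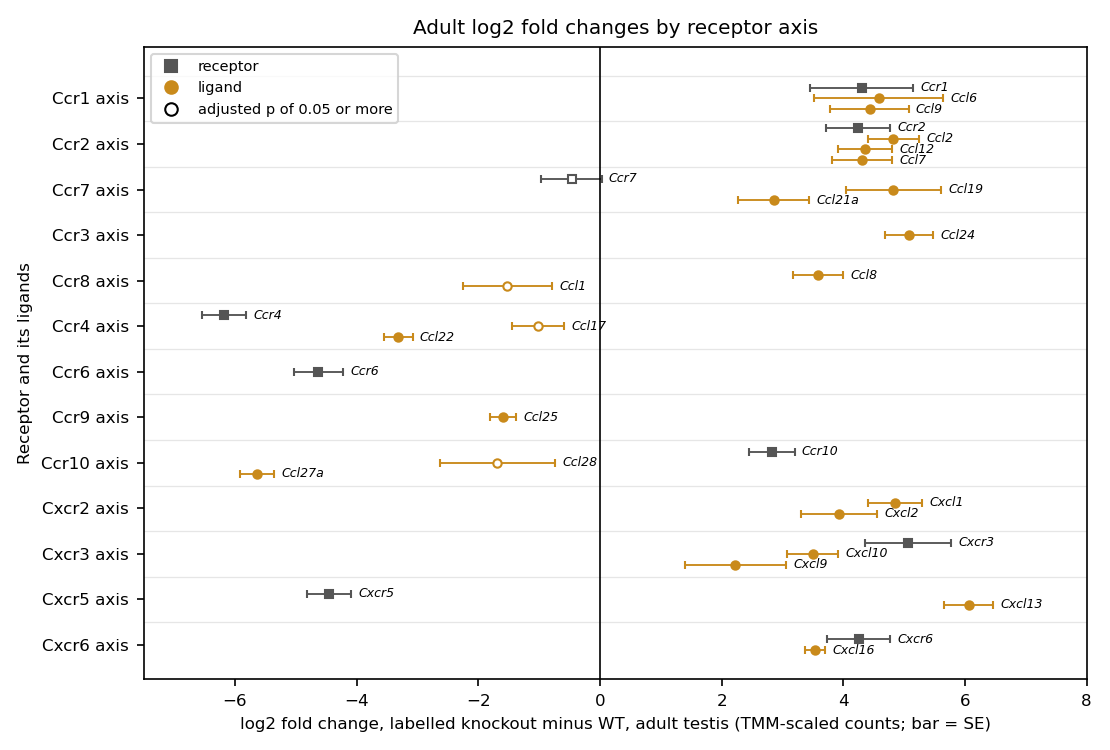
Fitted log2 fold changes (labelled RNF20 conditional knockout minus WT, adult testis, TMM-scaled counts) with standard errors for tested members of 13 receptor groups; squares are receptors, circles are ligands, and open symbols have an adjusted p of 0.05 or more; Ccl3, at 0 in every WT sample, is not drawn. Receptor and ligands lie on the same side for CCR1, CCR2, CXCR3 and CXCR6, and on opposite sides for Cxcr5 and Cxcl13 at −4.45 and 6.06.

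Among the 26 members that rose, the sample labelled knockout with the highest FPKM was the first for 9 genes, the second for 11 and the third for 6. The first led for *Ccl6*, *Ccl9*, *Ccl3*, *Ccl21a* and *Ccl8*, and the second for *Ccr1*, *Ccr2*, *Cxcr6*, *Ccl5* and *Cxcl9*. In 9 of the 26 the highest and lowest of the 3 were over 2-fold apart. Of the marker sums, that of 4 mast cell markers was 84.69, 31.90 and 10.43 FPKM in these samples in that order, and that of 12 macrophage markers was 3349.07, 2764.85 and 2151.66. That of 8 T and NK cell markers was 16.63, 26.77 and 18.59, highest in the second. Other cell types shared these orders. The stromal fibroblast sum was 3346.39, 1302.46 and 1269.61, the endothelial sum was 47.98, 31.49 and 29.75, and the Leydig cell sum was highest in the second. The Sertoli cell sum ran the other way, at 2074.96, 5767.23 and 6728.01.

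Markers of other cell types moved with the rise of the chemokine genes in the same samples. Over all genes tested in adult testis, 40.9% rose and 40.6% fell. Of the 12 macrophage markers 11 rose, among them *Csf1r* (log2 fold change 4.24, SE 0.26) and *Adgre1* (3.56, SE 0.29), and *Aif1* fell (−5.0, SE 0.28). Their sum of 683.90 to 778.45 FPKM in WT samples was mostly *Aif1*, at 589.43 to 668.01. Of the 6 T and NK cell markers tested 5 rose and *Cd3d* fell, and the list summed to 4.19 to 12.89 FPKM in WT samples and to 16.63 to 26.77 in the others. All 4 mast cell markers rose, from sums of 0.46 to 0.79 FPKM. Of the B cell markers 2 of 4 tested rose and *Pax5* fell, of the dendritic cell markers *Flt3* fell and the other 2 tested were not called, and of the monocyte and neutrophil markers *Ly6c2* rose and 2 were not called, with *Ly6g* at 0 in 5 of 6 samples. All 8 Leydig cell markers and all 6 stromal fibroblast markers rose, as did 5 of 6 endothelial and 5 of 7 peritubular myoid cell markers, of which 1 more fell. Of the 10 Sertoli cell markers 4 rose and 1 fell. The part of these cell types in the chemokine values was not tested.

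The other genes of the pathway were taken as 3 lists. Beside their counts, 40.9% of all 15919 genes tested rose and 40.6% fell, with a median log2 fold change of 0.01. Of the 6 tested among the chemokine genes that the symbol rule does not reach, 4 rose and 1 fell. *Cx3cl1*, a membrane-bound ligand, was at 0.52, 0.47 and 0.43 FPKM in WT samples and at 22.48, 13.32 and 21.18 in the others (log2 fold change 4.47, SE 0.28), and its receptor gene *Cx3cr1* rose by 3.40 (SE 0.24). *Cmklr1*, a receptor for chemerin, fell by 2.13 on the log2 scale (SE 0.18). Of 30 tested inducers and regulators of chemokine transcription, 27 rose and none fell, with a median log2 fold change of 2.37. *Irf1*, a transcription factor induced by interferon, had the smallest adjusted p of these, at 0.98, 1.1 and 1.06 FPKM against 22.00, 28.33 and 28.11. *Tnf* was at 0.04, 0 and 0 FPKM against 0.81, 1.19 and 0.88, and *Il6* and *Ifng* were too low to test. Of 38 genes of signalling downstream of chemokine receptors 26 rose and 6 fell, with a median of 1.66. *Rac1*, a small GTPase of cell movement, rose by 2.56 (SE 0.13), and *Prkcd*, a protein kinase C gene, fell by 3.08 (SE 0.20).

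The second question was how the same genes differ between cultured Sertoli cells of *Amh-Rnf20-/-* and control mice at day 7. Of the 43 members in that table, 20 passed the filter (0.5 FPKM or more in 2 or more samples), and these were 12 CC ligands, 6 CXC ligands and 2 atypical receptors. None of the 20 was called at an adjusted p under 0.05 in edgeR's quasi-likelihood test, as 0% of all 12880 genes tested were, and the smallest adjusted p among them was 0.267. At an unadjusted p under 0.05 there were 3 members (*Ccl17*, *Cxcl10* and *Cxcl14*), where 15.5% of all genes tested passed. DESeq2 called 2, *Ccl17* (adjusted p = 0.00741) and *Cxcl10* (adjusted p = 0.0291), both higher, where it called 4.50% of all genes tested in either direction, and limma on log2(FPKM + 0.1) called 0. On TMM-scaled counts both knockout samples lay above both WT samples in 5 members, where 24.9% of all genes tested did so, and below them in 1, where 26.1% did so. The median log2 fold change of the 20 genes was 0.45, beside 0.00 over all genes tested.

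The culture expressed ligands and almost no receptors of leukocytes. The 29 ligands in the table summed to 577.74 and 602.87 FPKM in WT samples and to 1538.60 and 481.59 in knockout samples. All 10 CC and CXC receptors in the table were at or under 0.42 FPKM in every sample. Of the 12 macrophage markers, 8 were under 1 FPKM in every sample, *Adgre1* among them, *Csf1r* was between 1.47 and 1.86, and *Cd68* and *Lyz2*, the highest, were between 6.14 and 14.24 and between 19.41 and 36.75. The culture held markers of several somatic cells. Mean WT levels ran from 0.27 to 910 FPKM over the 10 Sertoli cell markers, from 9.93 to 1078 over the 7 peritubular myoid cell markers and from 2.41 to 1029 over the 6 stromal fibroblast markers, with *Clu*, *Acta2* and *Col1a1* the highest of each. *Sox9*, which defines Sertoli cells, was at 41.84 and 39.43 FPKM in WT and at 10.19 and 25.66 in knockout samples. No marker of these lists was called.

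*Cxcl14* (chromosome 13, 56288643 to 56296811), a CXC ligand found in many epithelia, was the most abundant member in WT samples, with 52.5% and 55.7% of the summed ligand FPKM. It was at 303.57 and 336.01 FPKM in WT and at 267.50 and 235.04 in knockout samples, lower in both (log2 fold change −0.31, SE 0.11, adjusted p = 0.300, edgeR's quasi-likelihood test). In adult testis it was at no more than 1.1 FPKM; the tables were normalized separately, so the 2 levels give no test.

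*Ccl2* was at 71.04 and 77.51 FPKM in WT and at 654.47 and 89.21 in knockout samples, with both above both WT samples but the first 9.17-fold and the second 1.22-fold above the WT mean on scaled counts (log2 fold change 2.38, SE 0.96, adjusted p = 0.343). In the first knockout sample it was the most abundant ligand, at 42.5% of the sum. *Ccl7*, next to it on chromosome 11, was at 23.54 and 23.65 FPKM in WT and at 115.36 and 21.08 in knockout samples, so only the first lay above (adjusted p = 0.424). *Ccl12* and *Ccl8*, their neighbours, which were at 42.34 FPKM or more in the adult samples labelled knockout, were at or under 0.73 FPKM in the culture.

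*Ccl17* (chromosome 8, 94809380 to 94812038) was at 25.31 and 21.19 FPKM in WT and at 137.66 and 44.70 in knockout samples, above in both, by 6.01-fold and 1.88-fold (log2 fold change 1.98, SE 0.60, adjusted p = 0.267). *Cxcl10* was at 0.34 and 1.52 FPKM against 13.58 and 2.34 (log2 3.13, SE 1.11, adjusted p = 0.306), with the WT samples 4.38-fold apart. *Ccl5* was at 1.1 and 1.57 FPKM against 7.65 and 2.25 (adjusted p = 0.341). *Ccl27a* was low, at 0.32 and 0.79 FPKM against 0.76 and 2.48.

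**Figure D4:**
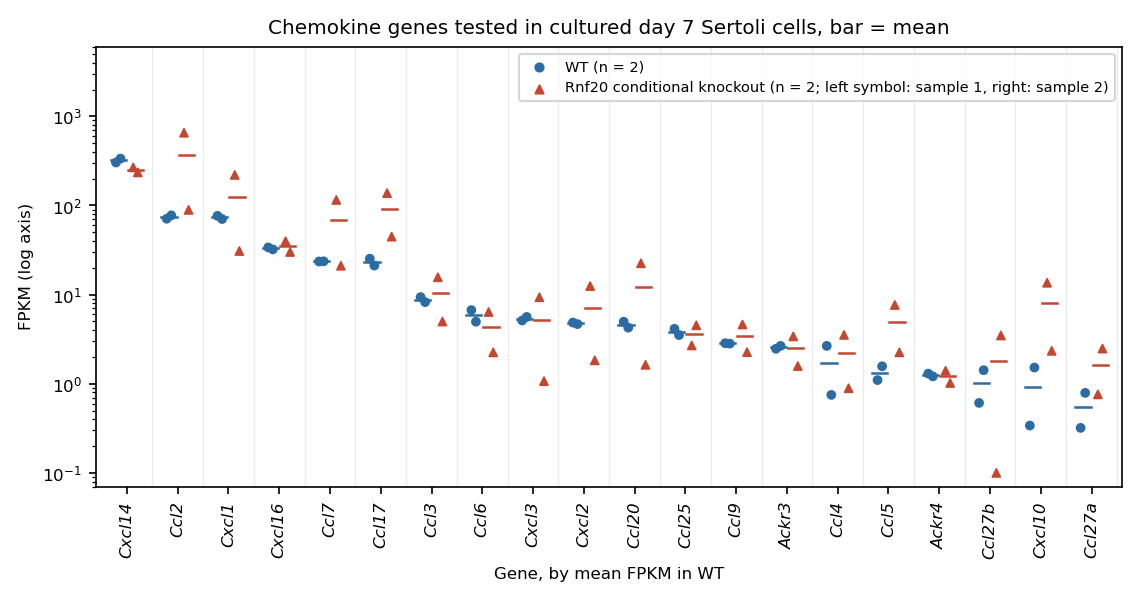
FPKM of the 20 chemokine genes that passed the filter in cultured day 7 Sertoli cells, on a log axis, ordered by the WT mean (circles WT, n = 2; triangles RNF20 conditional knockout, n = 2, the first sample at the left) with a bar at each group mean. The knockout samples straddle the WT samples for many genes, as for Cxcl1 at 220.1 and 30.84 around 76.48 and 70.47 FPKM.

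The neutrophil-attracting ligands *Cxcl1*, *Cxcl2* and *Cxcl3* split the knockout samples. *Cxcl1* was at 76.48 and 70.47 FPKM in WT and at 220.10 and 30.84 in knockout samples. *Cxcl2* was at 4.86 and 4.67 against 12.47 and 1.83, and *Cxcl3* at 5.13 and 5.62 against 9.34 and 1.07. Each was above both WT samples in the first knockout sample and below both in the second, so their fitted changes were small beside their errors (0.82, 0.63 and 0.00 on the log2 scale, with SE of 0.89, 0.87 and 0.93). *Cxcl5*, which missed the filter, had the same pattern, at 0.25 and 0.45 against 3.92 and 0.16 FPKM. *Ccl20*, the ligand of CCR6, was at 4.97 and 4.26 against 22.45 and 1.63. These genes lie on chromosomes 5 and 1, and the kappa B type motif shown above is in the promoters of *Cxcl1*, *Cxcl2* and *Cxcl3* but had no match in that of *Ccl20*.

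The same split held for 10 of the 20 members (*Ackr3*, *Ackr4*, *Ccl3*, *Ccl7*, *Ccl9*, *Ccl20*, *Cxcl1*, *Cxcl2*, *Cxcl3* and *Cxcl16*), where 12.3% of all genes tested were above both WT samples in the first knockout sample and below both in the second. The first knockout sample was over 2-fold above the WT mean for 9 of the 20, where 5.53% of all genes tested were, and the second for 3 of the 20, where 1.98% were. The split changed which genes were called. Without the second knockout sample 12 members were higher and 1 was lower at an adjusted p under 0.05, where 21.0% and 18.8% of all genes tested were. Without the first 2 were higher and 6 were lower, where 9.74% and 11.7% were, the lone sample being assumed to vary like the WT samples. *Cxcl1* went from a log2 fold change of 1.64 (adjusted p = 5.43e-06) without the second to −1.23 (adjusted p = 0.000452) without the first. Over all expressed genes the chi-square for each degree of freedom was 34.3 between the knockout samples and 2.65 between the WT samples. Of the 14 cell type lists, 7 had their highest sum in the first knockout sample. These were the macrophage (57.95 FPKM, against at most 34.28 in any other sample), mast cell (7.69, 3.27), stromal fibroblast (3233.78, 2784.78), endothelial (50.2, 36.04), Leydig cell (331.82, 247.79), monocyte and neutrophil (153.52, 143.45) and dendritic cell (10.59, 9.67) lists. The last 2 sums and the endothelial sum were mostly a single gene each, with *Plac8* at 151.88, *Zbtb46* at 9.34 and *Cdh5* at 42.97 FPKM in that sample. The endothelial marker *Pecam1* was lower in knockout samples, at 0.88 and 0.97 against 1.25 and 1.41 FPKM in WT. Both knockout samples lay above both WT samples in 6 lists and below them in 3. The peritubular myoid cell markers summed to 2247.56 and 2118.41 FPKM in WT and to 3821.86 and 3901.23 in knockout samples, the Sertoli cell markers to 1493.78 and 1346.02 against 873.43 and 1155.25, and the spermatogonium markers to 46.12 and 55.08 against 26.16 and 33.9. The part of these cells in the day 7 values was not tested.

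**Figure D5:**
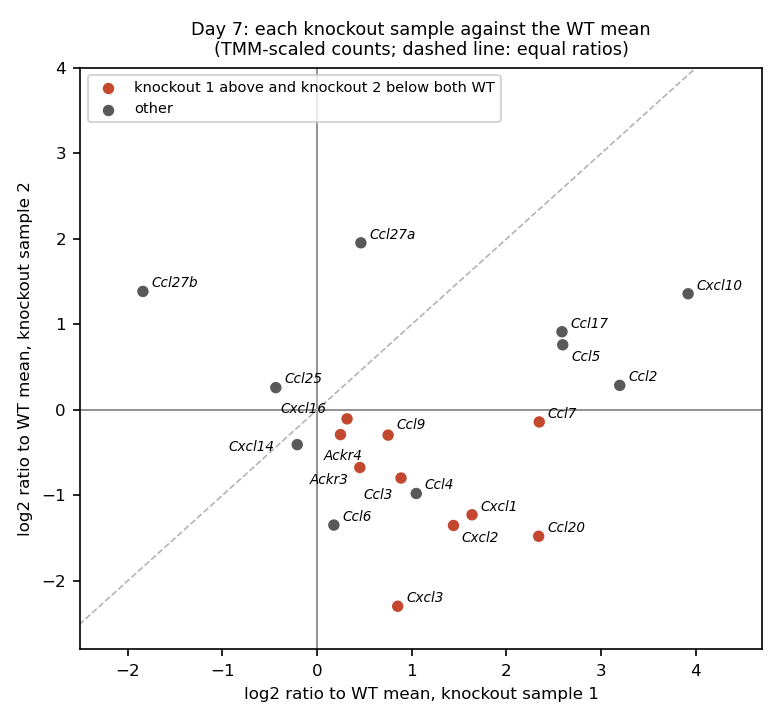
Log2 ratio of each knockout sample to the WT mean for the 20 chemokine genes tested at day 7, on TMM-scaled counts, with the first knockout sample on the horizontal and the second on the vertical axis. The 10 coloured genes are above both WT samples in the first and below both in the second, and Cxcl10, Ccl17, Ccl5 and Ccl2 are above in both.

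The remaining members tested at day 7 were not called and are given by their samples. *Cxcl16* was at 33.86 and 32.16 FPKM in WT and at 39.72 and 30.07 in knockout samples (log2 fold change 0.12, SE 0.17). *Ccl3* was at 9.38 and 8.24 against 15.65 and 4.99, *Ccl6* at 6.71 and 4.97 against 6.38 and 2.25, and *Ccl9* at 2.85 and 2.82 against 4.62 and 2.26. *Ccl25* was at 4.14 and 3.52 against 2.69 and 4.53, *Ccl4* at 2.66 and 0.75 against 3.53 and 0.89, and *Ccl27b* at 0.61 and 1.42 against 0.10 and 3.48. The atypical receptors *Ackr3* and *Ackr4* were at 2.47 and 2.66 against 3.40 and 1.58, and at 1.30 and 1.21 against 1.40 and 1.02. Their adjusted p-values were between 0.728 and 0.998 in edgeR's quasi-likelihood test. Of the 23 members not tested, 22 were under 1 FPKM in every sample. In the other lists, 0 of the 30 tested inducers and regulators, 0 of the 28 downstream signalling genes and 0 of the 3 other chemokine genes were called at day 7.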

How the data were processed

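RNA was enriched with oligo(dT) and sequenced on the BGISEQ platform. The submitters' processing notes name HISAT, Bowtie2 and the GRCm38.p6 build for both tables, and the study's methods give FPKM by RSEM for the day 7 cells. The authors deposited estimated counts, FPKM and TPM, of which the TPM were not used. Tool versions, the handling of strand and other steps behind the adult table are not given in the sources used here. The adult table has 20 columns without values, which were not used. Estimated counts were rounded and compared with edgeR's quasi-likelihood test (glmQLFit, glmQLFTest) on TMM-scaled libraries. Genes entered with 0.5 FPKM or more in at least 3 adult or 2 day 7 samples, and p-values were adjusted over all of them by Benjamini-Hochberg. Standard errors were derived from the F statistic. The rule for members uses symbols only, but this gene family, the lists and the ligand to receptor pairs were chosen with earlier results of these data known. The counts over members include a gene that is not reported here. Members with a mean FPKM of at least 1 in a group, or called, are described. In the lists, the genes with the smallest adjusted p and defining markers are named, and *Cxcl5*, *Tnf*, *Cx3cr1* and other low or paired genes were chosen after their values were seen. Intervals and floors cover counting error only, as no molecular identifiers are described. The tests were tried on simulated data in which few genes changed, which does not cover the adult case, where most genes tested were called. Alternatives were median-ratio and total-count scaling, other filters, DESeq2, limma on log2(FPKM + 0.1) and log2(FPKM + 1), the replicate number as a block, and each sample left out. Gene positions and promoters are from RefSeq, overlaps and transcripts from GENCODE on GRCm38. The tools were edgeR 4.0.16, DESeq2 1.42.0, limma 3.58.1, R 4.3.3, Python 3.11.15, Biopython 1.88 and matplotlib 3.10.9.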

Additional observations from a re-analysis of the deposited data

Results flagged for a closer look

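For *Ccl17* and *Ccl27a* all knockout samples moved to the same side of the WT samples in each table, but to opposite sides in the 2 tables, on TMM-scaled counts. *Ccl17* had a log2 fold change of −1.01 in adult testis and of 1.98 in the day 7 culture. Neither was called (adjusted p = 0.0660 and 0.267, edgeR's quasi-likelihood test), and with limma on log2(FPKM + 0.1) the adult value was 0.35, in the same direction as at day 7. *Ccl27a* had −5.64 in adult testis and 1.32 at day 7 (adjusted p = 0.475), where it was at most 2.48 FPKM. On FPKM the day 7 groups of *Ccl27a* overlapped, with the lower knockout sample between the WT samples. The difference between the tables was not tested, since they hold different material and were normalized separately.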

How the results depend on the processing

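The adult counts of 26 higher and 7 lower genes ranged from 21 to 28 and from 6 to 9 over all alternatives. In these fits 34.7% to 54.1% of all genes were higher and 30.0% to 44.2% were lower. The number of members tested was not the same throughout. The 21 were of 30 members with the filter at a mean FPKM of at least 1, and the 28 of 55 without a filter. *Cxcl9* alone of the 33 called genes lost its call, at an adjusted p of 0.0588 (edgeR) with median-ratio scaling, of 0.138 with the replicate number as a block (log2 fold change 1.74), and of 0.0716 to 0.129 without any WT replicate or the second labelled knockout. The count past the study's thresholds, 23, ranged from 7 to 29 when each replicate was left out, in fits where 16.9% to 64.7% of all genes passed. Whether replicate numbers pair the samples is not settled by these data. Deviations of same-numbered samples from their group means correlated by only 0.011 to 0.025 in adult testis and 0.036 at day 7. Every adult sample correlated best with its own number, a hint from the data and not from the design. At day 7, with 2 samples a group, the deviations within a group mirror each other, so the check cannot decide. With the replicate number as a block, 25 adult genes were higher and 7 lower, where 38.1% and 38.6% of all genes were. With that block 0 passed the study's thresholds in adult testis and 0 were called at day 7, as 0% of all genes were. At day 7, DESeq2 called 2 genes higher (4.50% of all genes in either direction), and leaving out each replicate gave 0 to 12 higher and 0 to 6 lower, in fits that called 0% to 21.0% of all genes higher and 0% to 18.8% lower.

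Direction turned in adult testis for *Ccl17* with limma, to 0.35 on log2(FPKM + 0.1) and 0.31 on log2(FPKM + 1). Both the gene's implied length and the scaling to all fragments enter there, and total-count scaling alone put it at −0.18. Direction also turned for *Ccl4*, from −0.043 to 0.72 over the samples left out. At day 7, *Ackr3* was at 0.00015 with median-ratio scaling and at 0.00078 with DESeq2. *Ackr4* and *Cxcl3* were at −0.037 and −0.038 with total-count scaling, −0.0065 and −0.013 without a filter, −0.063 and −0.72 with limma on log2(FPKM + 0.1), −0.034 and −0.46 on log2(FPKM + 1), and −0.013 and −0.46 with the block. *Ccl27b* was at −0.30 with limma on log2(FPKM + 0.1). With each day 7 sample left out, log2 fold changes ran from −0.67 to 0.45 for *Ackr3*, −0.29 to 0.24 for *Ackr4*, −1.47 to 2.34 for *Ccl20*, −0.44 to 0.26 for *Ccl25*, −1.87 to 1.38 for *Ccl27b*, −0.80 to 0.88 for *Ccl3*, −0.96 to 1.61 for *Ccl4*, −1.34 to 0.18 for *Ccl6*, −0.14 to 2.34 for *Ccl7*, −0.29 to 0.75 for *Ccl9*, −1.23 to 1.64 for *Cxcl1*, −0.11 to 0.32 for *Cxcl16*, −1.35 to 1.44 for *Cxcl2* and −2.29 to 0.85 for *Cxcl3*. The cause of these turns was not tested. With 2 samples a group the day 7 fit had few degrees of freedom, and genes with under 10 counts in a group, such as *Cxcr3* and *Ccr10* in WT testis, have wide counting intervals.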
